A study of Saccharomyces cerevisiae with 10 samples.

Results

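Between 1 and 4 h after a yeast culture was moved from dextrose to ethanol, part of its first mRNA response was turned back. The genes that build ribosomes and make amino acids and purines rose again. Those for fatty acid breakdown, stress protection and storage carbohydrate fell, and the genes that use ethanol kept most of their level. These changes were read from the 2 arrays of 4 h set against the 2 arrays of 1 h, for all 5449 genes that could be named, with the brightest probe set taken for each gene. They are 4 of the 10 Affymetrix arrays of the time course, which has 2 arrays at the start and 2 each after 0.5, 1, 4 and 12 h, with 5449 named genes in all. The RNA came from a pool of barcoded diploid strains of S288c background in which a protein-fragment complementation assay (BC‐PCA) makes growth in methotrexate depend on the binding of a pair of tagged proteins. The cells of 4 h and those of 1 h had been in the same medium, yeast nitrogen base and ammonium sulfate with ethanol and methotrexate, and differed in the time spent there. The strains of the pool were grown together, so in these RNAs fewer cells that make a transcript and less of it per cell cannot be told apart.

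Yeast that loses glucose has to make sugar phosphates from the new carbon source by gluconeogenesis and the glyoxylate cycle, and has to respire to make ATP. A sudden loss of glucose also lowers the signalling through protein kinase A and TORC1, after which transcription of the genes for ribosomes is held down and the stress genes under Msn2 and Msn4 are switched on. In many such shifts this general response is known to be strongest early and to fade as cells adapt, whereas genes tied to the new carbon source stay on.

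The deposited values are intensities on a linear scale from robust multiarray analysis (RMA), which brings all arrays to about the same distribution and so hides any change in the total mRNA of a cell. Array medians lay between 316.4 and 351.1, and replicate arrays had a Pearson's r between 0.977 and 0.985 over the log2 values of all genes. Replicate arrays are named biological in the labels, and no source used here says that they were separate cultures, so p-values measure the spread between arrays, part of which may be technical. The methods text of the study does not list a harvest at 1 h, which the labels and the results text both give. Of 12 genes that diploid cells keep off, such as the pheromone receptor genes STE2 and STE3, the summed intensity was 747.9 and 773.8 on the arrays of 4 h and lay between 864.6 and 1021.9 on those of 1 h. Their median place was above 10.5% of all genes at 4 h and 13.1% at 1 h. They did not all move alike: STE3 had 25.3 and 28.4 at 4 h, against 13.6 and 17.5 at 1 h. GPA1 was likewise higher on both arrays of 4 h, and the others were lower or overlapped. RME1, the brightest of them, stood above 32.2% of genes at 1 h. In data simulated on these arrays with 200 genes changed, the limma fit used throughout recovered 78% of 2‐fold and 100% of 4‐fold changes from 1 to 4 h, and 5.82% of its calls were false. The simulated noise was independent between genes and arrays, and far fewer genes were changed than were called below. These rates therefore need not hold for the real arrays.

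At 4 h, 1485 of the 5449 genes (27.3%) differed from 1 h at an adjusted p under 0.05. There were 789 genes that rose (14.5%) and 696 that fell (12.8%), and 650 of them changed at least 2‐fold. The median change over all genes was −0.03 on the log2 scale, and 5% of genes lay below −1.03 and 5% above 1.19. For all 1485 genes both arrays of 4 h lay beyond both arrays of 1 h. The calls come from the same arrays, so this is no separate support, and the share over all genes was not counted. The number of calls rested on 2 of the 4 arrays: it was 519 without 1 h replicate 2 and 479 without 4 h replicate 1, against 1053 without 1 h replicate 1 and 1079 without 4 h replicate 2. Replicate 1 of 4 h was the one farther from 1 h for 78.8% of the genes that rose and 78.2% of those that fell. The median change of the rising genes was 0.93 between the arrays numbered 1 and 1.04 between those numbered 2, and that of the falling genes was −0.93 and −0.84. Leaving out an array leaves a single one at that time, which is then assumed to vary as the other times do.

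Outside the dimmest 25% of genes, the largest rise belonged to NSR1 (YGR159C), which encodes a nucleolar protein that binds pre-rRNA. Its intensity was 736 and 663 at 4 h, against 69.5 and 102 at 1 h. This is a log2 change of 3.05 ± 0.30 (SE, adjusted p = 0.000918), and the gene stood above 75.5% of all genes at 4 h, against 13.7% at 1 h. DRS1 (YLL008W), an RNA helicase of large-subunit assembly, had 454 and 314 at 4 h, against 84.2 and 50.7 at 1 h. NOG1 (YPL093W), a GTPase of the same pathway, had 990 and 646 at 4 h, against 186 and 140 at 1 h. BFR2 (YDR299W), a part of the early pre-ribosome, had 367 and 323 at 4 h, against 88.4 and 65.3 at 1 h. All of them work on ribosome assembly.

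CTP synthase, encoded by URA7 (YBL039C), had an intensity of 668 and 348 at 4 h, against 83.9 and 64.6 at 1 h. The biotin transporter gene VHT1 (YGR065C) had 3432 and 2192 at 4 h, against 691 and 339 at 1 h. The ammonium permease gene MEP2 (YNL142W) had 2391 and 4439 at 4 h, against 778 and 617 at 1 h. Their log2 changes were 2.71, 2.50 and 2.23. CYC1 (YJR048W), the main cytochrome c gene, had 2885 and 2280 at 4 h, against 571 and 523 at 1 h, a change of 2.23 ± 0.42 (SE, adjusted p = 0.0057). PEX21 (YGR239C), which helps the receptor Pex7 to bring enzymes into peroxisomes, had 1041 and 877 at 4 h, against 234 and 168 at 1 h. CDA2 (YLR308W), which encodes a chitin deacetylase of the spore wall, had 839 and 662 at 4 h, against 138 and 62.4 at 1 h. Each of the 10 largest rises also passed with any 1 of the 4 arrays left out, CDA2 and CYC1 with the largest adjusted p, 0.040 and 0.044, without 1 h replicate 2.

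**Figure D1:**
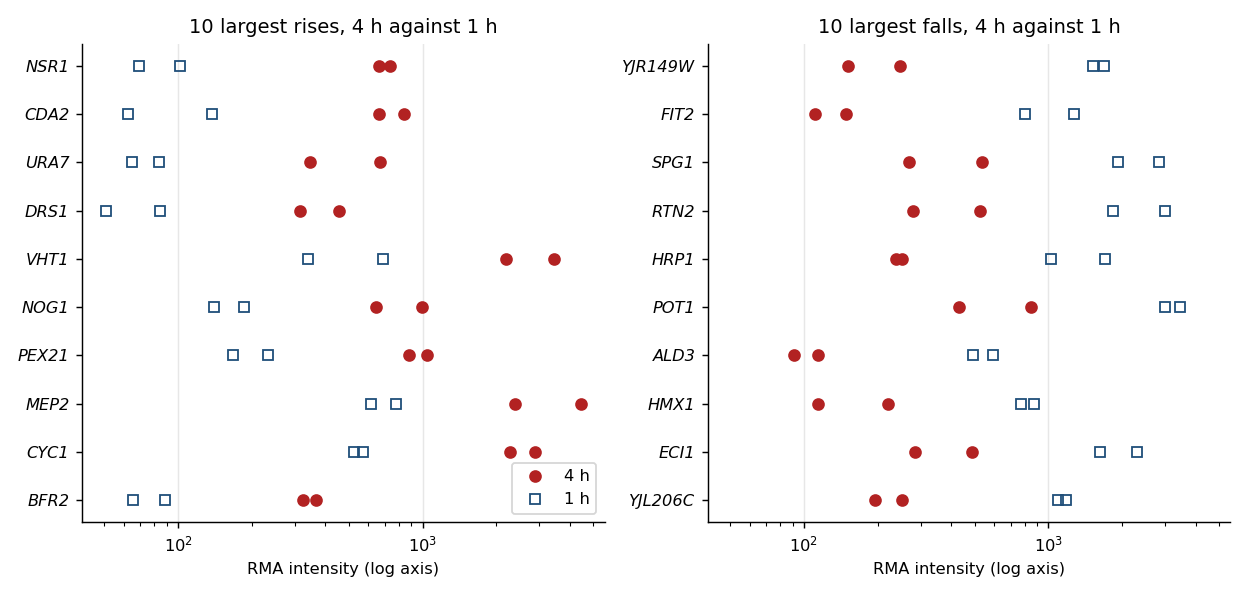
RMA intensity (log axis) of each array of 4 h (filled circles) and 1 h (open squares) for the 10 largest rises and the 10 largest falls past the threshold. Genes were chosen without overlap between the times, and NSR1 has 736 and 663 at 4 h, against 69.5 and 102 at 1 h.

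Among the falls, POT1 (YIL160C), the thiolase of β-oxidation, had an intensity of 432 and 848 at 4 h, against 3006 and 3442 at 1 h. ECI1 (YLR284C), an isomerase of the same pathway, had 285 and 489 at 4 h, against 1632 and 2303 at 1 h. SPG1 (YGR236C), named for its role in stationary phase, had 269 and 533 at 4 h, against 1925 and 2839 at 1 h. These were among the brighter genes at 1 h and stood in the middle of the range at 4 h. RTN2 (YDL204W), a reticulon-like protein of the endoplasmic reticulum, had 279 and 527 at 4 h, against 1829 and 2987 at 1 h. ALD3 (YMR169C), a cytosolic aldehyde dehydrogenase, had 91.0 and 114 at 4 h, against 492 and 591 at 1 h. HRP1 (YOL123W), which takes part in the 3′ end cleavage of mRNA, had 237 and 251 at 4 h, against 1711 and 1028 at 1 h. Genes with overlapping arrays could not be chosen.

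The remaining large falls were 2 genes of iron use, FIT2 (YOR382W) and HMX1 (YLR205C), and 2 genes known by their systematic names, YJR149W and YJL206C. Like the rises, these 10 falls leave out the dimmest 25% of genes. The largest of the 10 was that of YJR149W, with an intensity of 151 and 247 at 4 h against 1517 and 1688 at 1 h, a log2 change of −3.05 ± 0.22 (SE, adjusted p = 0.000406). YJL206C had 196 and 252 at 4 h, against 1091 and 1179 at 1 h. Of the 10 largest falls, 8 passed with any 1 array left out. SPG1 did not pass without 1 h replicate 2 or 4 h replicate 1 (adjusted p = 0.063 in both), nor did POT1 (adjusted p = 0.090 and 0.111).

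The genes that assemble ribosomes had the highest median change of the 45 lists. Of 155 measured ribosome biogenesis genes 138 rose (89%, against 14.5% of all genes) and 0 fell, with a median log2 change of 1.36, against −0.03 over all genes. The median was 1.27 between the arrays numbered 1 and 1.42 between those numbered 2. At 0.5 and 1 h this list had stood 2.15 and 1.97 log2 units below 0 h in the median, it was −0.59 by 4 h and −0.38 by 12 h. DBP2 (YNL112W), an RNA helicase, had an intensity of 230 and 276 at 4 h, against 31.8 and 44.0 at 1 h, and it went on to 1565 and 809 at 12 h. NOP13 (YNL175C), a nucleolar RNA-binding protein, had 322 and 271 at 4 h, against 68.4 and 38.0 at 1 h. A pair of genes for enzymes that modify tRNA, which were picked after their values were seen and stand for no list, also rose. PUS1 (YPL212C), a pseudouridine synthase, had 656 and 592 at 4 h, against 160 and 130 at 1 h, and TRM11 (YOL124C), a subunit of a tRNA methyltransferase, had 305 and 217 at 4 h, against 79.3 and 43.8 at 1 h. The list's count was 92 without 1 h replicate 2 and 93 without 4 h replicate 1.

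Genes for the ribosome's own proteins moved together and by less. Of 128 cytosolic ribosomal protein genes 114 rose (89.1%, against 14.5% of all genes) and 0 fell. The other 14 also had positive log2 changes, from 0.24 upwards over the list. The median was 0.75, below that of the assembly genes. RPL8A (YHL033C) had an intensity of 3608 and 3517 at 4 h, against 940 and 890 at 1 h, a change of 1.96 ± 0.23 (SE, adjusted p = 0.0012), and its near copy RPL8B (YLL045C) had 2949 and 2906 at 4 h, against 1433 and 1187 at 1 h. RPS26B (YER131W) had 2287 and 2045 at 4 h, against 843 and 520 at 1 h. Near copies share much of their sequence, so these values may include each other's mRNA, although neither probe set is marked as shared. RPS9A (YPL081W) was 1 of the few not among the 123 genes of the list called lower at 0.5 h: its intensity was 219 and 374 at 0 h, 154 and 325 at 0.5 h, 281 and 434 at 1 h, 1265 and 1194 at 4 h and 918 and 1171 at 12 h. It did not pass without 4 h replicate 1 (adjusted p = 0.052). The list's count was 44 without 1 h replicate 2, 45 without 4 h replicate 1 and 69 without 4 h replicate 2, with 0 falls in each.

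The machinery around the ribosome followed in part. Of 41 subunits of RNA polymerases I and III 17 rose (41.5%, against 14.5% of all genes) and 1 fell (2.44%, against 12.8%). The median was 0.52, and the 4 largest changes were all of polymerase I, the enzyme that makes rRNA. RPA135 (YPR010C), its second largest subunit, had an intensity of 1629 and 973 at 4 h, against 403 and 220 at 1 h, and RPA49 (YNL248C) had 376 and 282 at 4 h, against 82.6 and 64.2 at 1 h. Of 20 cytosolic tRNA synthetases 18 rose (90%, against 14.5% of all genes) and 0 fell (median 0.84). The largest change was that of the asparaginyl-tRNA synthetase gene DED81 (YHR019C), with 2574 and 2088 at 4 h against 977 and 652 at 1 h. The synthetase count fell to 6 without 1 h replicate 2 and to 4 without 4 h replicate 1. Among 40 translation factors 11 rose (27.5%, against 14.5% of all genes) and 2 fell (5%, against 12.8%). The elongation factor gene YEF3 (YLR249W) had 4084 and 3309 at 4 h, against 1473 and 1398 at 1 h. GCD11 (YER025W), a subunit of the initiation factor eIF2, went the other way, with 1175 and 1790 at 4 h against 3349 and 3742 at 1 h (log2 change −1.29 ± 0.22, SE, adjusted p = 0.0038). The polymerase count was 5 and the translation factor count of rises 3 and 2 without 1 h replicate 2 and without 4 h replicate 1, and the genes named here passed in each case.

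Mitochondrial ribosomal protein genes had no such course. Of 75 measured, 2 rose (2.67%, against 14.5% of all genes) and 1 fell (1.33%, against 12.8%) between 1 and 4 h. The median log2 change was 0.07, and 70 had already been higher at 0.5 h than at 0 h. MRPL44 (YMR225C) rose, with an intensity of 539 and 474 at 4 h against 242 and 269 at 1 h. RSM22 (YKL155C), which is needed for the small subunit of the mitochondrial ribosome, fell, with 344 and 442 at 4 h against 960 and 1649 at 1 h, and its 12 h arrays read 308 and 297. Of 40 genes of mitochondrial protein import 7 rose (17.5%, near the 14.5% of all genes) and 0 fell, among them TIM9 (YEL020W-A), a chaperone of the intermembrane space, with 675 and 703 at 4 h against 310 and 340 at 1 h. The import count was 1 without 1 h replicate 2 and 1 without 4 h replicate 1, and TIM9, MRPL44 and RSM22 passed in all 4 cases.

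**Figure D2:**
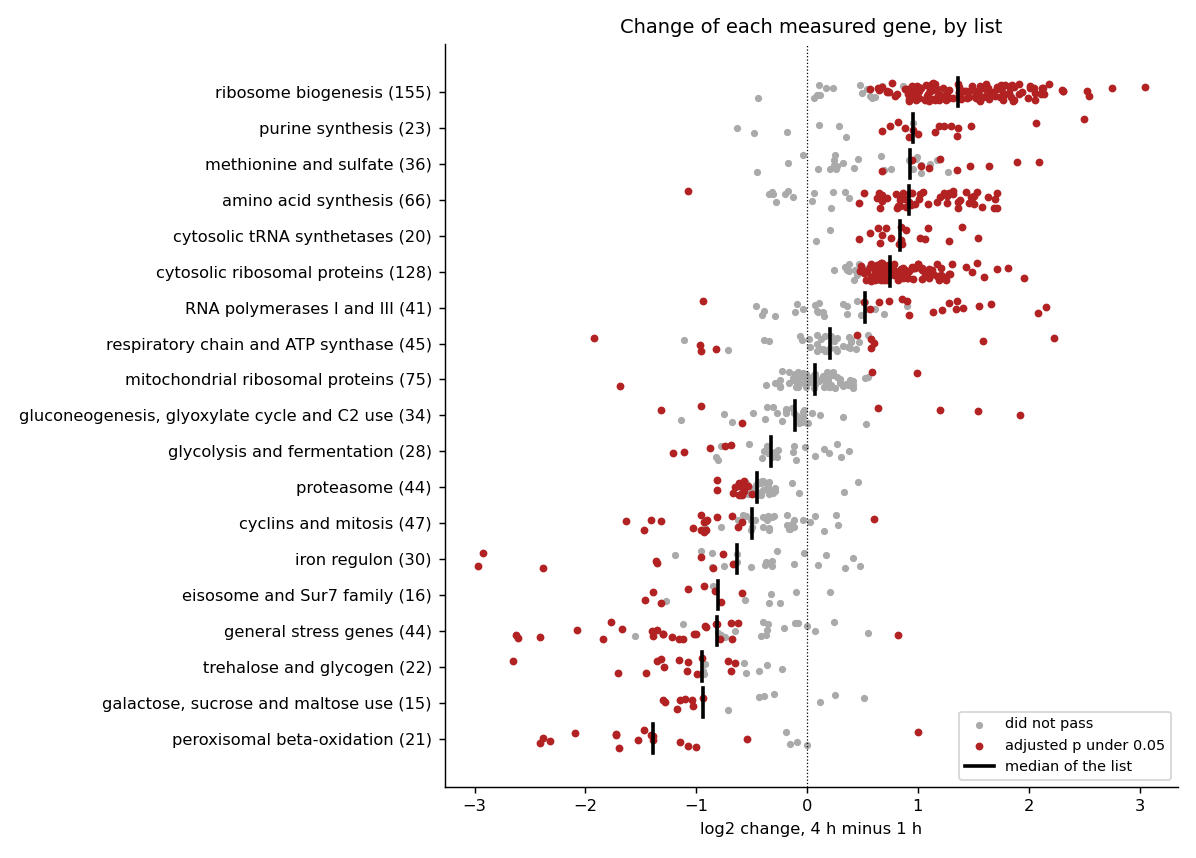
Log2 change from 1 to 4 h of every measured gene of 19 lists, with the number of genes in parentheses. Red points passed at an adjusted p under 0.05, grey points did not, and the black bar is the median, which runs from 1.36 in ribosome biogenesis to −1.39 in peroxisomal β-oxidation.

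Biosynthesis came back beside the ribosome. Of 66 amino acid synthesis genes 52 rose (78.8%, against 14.5% of all genes) and 1 fell, with a median log2 change of 0.92. LYS4 (YDR234W), homoaconitase of lysine synthesis, had an intensity of 800 and 580 at 4 h, against 238 and 183 at 1 h. LEU9 (YOR108W), an α-isopropylmalate synthase of leucine synthesis, had 706 and 418 at 4 h, against 186 and 151 at 1 h. SER3 (YER081W), which opens serine synthesis from a glycolytic intermediate, was not among the 55 genes of the list called lower at 0.5 h: 622 and 494 at 0 h, 564 and 399 at 0.5 h, 628 and 443 at 1 h, 1889 and 1569 at 4 h and 2036 and 2179 at 12 h. Its log2 change from 1 to 4 h was 1.71 ± 0.23 (SE, adjusted p = 0.0019). The 1 fall was that of BAT2, a cytosolic branched-chain aminotransferase, named after its values were seen, with a log2 change of −1.07, and it did not pass without 4 h replicate 1. The count of rises was 22 without 1 h replicate 2 and 23 without 4 h replicate 1.

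Purine genes rose as a group, 16 of 23 (69.6%, against 14.5% of all genes) with 0 falls and a median log2 change of 0.96. AAH1 (YNL141W), the adenine deaminase, had an intensity of 247 and 155 at 4 h, against 36.8 and 32.6 at 1 h, and had read 612 and 972 at 0 h. GUA1 (YMR217W), GMP synthase, had 1316 and 930 at 4 h, against 340 and 203 at 1 h. IMD3 (YLR432W), which makes the precursor of GMP, had 1105 and 783 at 4 h, against 392 and 283 at 1 h, and 2639 and 2431 at 12 h. The pathway was still moving after 4 h: the median of the list was 0.82 higher at 12 h than at 4 h, against 0.01 over all genes. ADE2 (YOR128C) of the adenine branch, picked after its values were seen, had 888 and 1019 at 0 h, 770 and 1093 at 0.5 h, 778 and 956 at 1 h, 1454 and 1585 at 4 h and 3604 and 3879 at 12 h. The adjusted p of ADE2 was 0.017, and it passed only without 1 h replicate 2. The purine count was 8 without 4 h replicate 1, and AAH1, GUA1 and IMD3 passed in each case.

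Sulfur, one-carbon and nitrogen genes changed in part. Of 36 methionine and sulfate genes 10 rose (27.8%, against 14.5% of all genes) and 0 fell, although the median was 0.93. The sulfate permease gene SUL1 (YBR294W) had an intensity of 3097 and 1604 at 4 h, against 749 and 485 at 1 h, and STR3 (YGL184C), a cystathionine β-lyase, had 1559 and 1217 at 4 h, against 459 and 427 at 1 h. The count varied with the arrays used, and was 11, 4, 3 and 22 without 1 h replicate 1, 1 h replicate 2, 4 h replicate 1 and 4 h replicate 2. Of 18 folate and one-carbon genes 6 rose (33.3%) and 2 fell (11.1%, near the 12.8% of all genes). MIS1 (YBR084W), a mitochondrial C1-tetrahydrofolate synthase, had 461 and 304 at 4 h, against 141 and 80.9 at 1 h. Among 38 genes of amino acid permeases and nitrogen use 8 rose (21.1%, against 14.5% of all genes) and 6 fell (15.8%, near the 12.8%). All 3 ammonium permease genes were among the rises, with MEP1 named after its values were seen. MEP3 (YPR138C) had 1097 and 1849 at 4 h, against 324 and 324 at 1 h, and MEP1 (YGR121C) had 1481 and 2341 at 4 h, against 823 and 725 at 1 h. MEP1, MEP2 and MEP3 were higher on replicate 2 of 4 h than on replicate 1, and each passed with any 1 array left out.

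The peroxisome showed the opposite. Of 21 genes of peroxisomal β-oxidation, the pathway that shortens fatty acids, 16 fell (76.2%, against 12.8% of all genes) and 1 rose, with a median log2 change of −1.39, the lowest of the lists. Relative to 0 h the list stood at medians of 2.99, 3.44, 1.83 and 0.69 at 0.5, 1, 4 and 12 h. The oxidase gene POX1 (YGL205W), whose enzyme takes the first step, had an intensity of 473 and 736 at 4 h, against 1529 and 2487 at 1 h. FOX2 (YKR009C), the multifunctional enzyme of the next steps, had 1299 and 2162 at 4 h, against 3956 and 5455 at 1 h. POX1, FOX2 and POT1 encode successive steps of the cycle, and all 3 were lower. POX1 and FOX2 were picked after their values were seen, as was PIP2, given below. IDP3 (YNL009W), the isocitrate dehydrogenase that supplies NADPH inside peroxisomes, had 213 and 376 at 4 h, against 929 and 1556 at 1 h. PIP2 (YOR363C), one of the 2 fatty acid-responsive activators of these genes, had been lower from the start, with 978 and 972 at 0 h, 477 and 491 at 0.5 h, 472 and 483 at 1 h, 231 and 246 at 4 h and 182 and 142 at 12 h. POX1 and FOX2 did not pass without 1 h replicate 2 (adjusted p = 0.074 and 0.116) or without 4 h replicate 1 (0.069 and 0.125). The list's falls numbered 6 without 1 h replicate 2 and 7 without 4 h replicate 1.

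A pair of carnitine genes, picked after their values were seen, did not pass. CAT2 (YML042W), the carnitine acetyltransferase, had an intensity of 5462 and 6341 at 4 h, against 6326 and 7140 at 1 h. CRC1 (YOR100C), the mitochondrial carnitine carrier, had 6065 and 6375 at 4 h, against 7816 and 7156 at 1 h. Their adjusted p was 0.558 and 0.755. ANT1 (YPR128C), the adenine nucleotide carrier of the peroxisome, was the 1 gene of the β-oxidation list that rose, with 549 and 369 at 4 h against 249 and 202 at 1 h, and it did not pass without 1 h replicate 2 or 4 h replicate 1 (adjusted p = 0.149 and 0.179). Of 27 peroxins, the proteins that build peroxisomes, 6 fell (22.2%, against 12.8% of all genes) and 1 rose, the rise being PEX21. PEX3 (YDR329C), which is needed to form the membrane, had 412 and 426 at 4 h, against 723 and 709 at 1 h, and its adjusted p was 0.059 without 4 h replicate 1. The peroxin falls numbered 1 without 1 h replicate 2 and 0 without 4 h replicate 1.

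Stress protection receded, and unevenly. Of 44 general stress genes 25 fell (56.8%, against 12.8% of all genes) and 1 rose, with a median log2 change of −0.81. RTC3 (YHR087W) had an intensity of 397 and 681 at 4 h, against 2089 and 2318 at 1 h. The cytosolic catalase gene CTT1 (YGR088W) had 428 and 650 at 4 h, against 1306 and 2152 at 1 h, a change of −1.67 ± 0.28 (SE, adjusted p = 0.0038). The small heat shock gene HSP12 (YFL014W), one of the brightest genes of the array, had 11961 and 12275 at 4 h and 12390 and 11904 at 1 h, which overlap. HSP30 (YCR021C), a plasma membrane protein that restrains the proton pump, was the 1 rise, with 1004 and 1150 at 4 h against 629 and 587 at 1 h, and it did not pass with any 1 of the 4 arrays left out (adjusted p from 0.066 to 0.125). The count of falls was 7 without 1 h replicate 2 and 6 without 4 h replicate 1, and CTT1 and RTC3 passed in both.

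Storage carbohydrate genes fell with them. Of 22 genes for trehalose and glycogen 14 fell (63.6%, against 12.8% of all genes) and 0 rose. All 22 changes were negative, with a median of −0.94. GPH1 (YPR160W), glycogen phosphorylase, had an intensity of 228 and 301 at 4 h, against 681 and 1085 at 1 h. PIG2 (YIL045W), which targets a phosphatase to glycogen synthase, had 238 and 418 at 4 h, against 759 and 846 at 1 h. GIP2 (YER054C), of the same role, had 20.3 and 44.2 at 4 h, against 158 and 224 at 1 h, a change of −2.65 ± 0.34 (SE, adjusted p = 0.0014), and it stood above 6.7% of genes at 4 h, against 31.6% at 1 h. TPS1 (YBR126C), which makes trehalose 6-phosphate, had 1566 and 2449 at 4 h, against 3731 and 4564 at 1 h. It was picked after its values were seen. TPS1 acts in trehalose synthesis and GPH1 in glycogen breakdown, and both were lower. TPS1 did not pass without 1 h replicate 2 (adjusted p = 0.080) or 4 h replicate 1 (0.083), and the list's count was 4 in both cases.

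Of 16 genes of the eisosome and Sur7 family, proteins of furrows in the plasma membrane, 8 fell (50%, against 12.8% of all genes) and 0 rose. Their median was −0.80. The Sur7-family gene YNL194C had an intensity of 845 and 1155 at 4 h, against 2273 and 3262 at 1 h, and LSP1 (YPL004C), a core eisosome subunit, had 1987 and 2340 at 4 h, against 3998 and 4200 at 1 h. Without 1 h replicate 2 or 4 h replicate 1 the count was 2, and LSP1 did not pass (adjusted p = 0.062 and 0.076). Of 33 autophagy genes 6 fell (18.2%, against 12.8% of all genes) and 0 rose. ATG7 (YHR171W), the activating enzyme of both autophagy conjugations, had 136 and 165 at 4 h, against 360 and 325 at 1 h. Of 44 proteasome genes 15 fell (34.1%) and 0 rose, and 42 of the 44 changes were negative (median −0.45). PRE3 (YJL001W), a catalytic subunit, had 1145 and 1308 at 4 h, against 2189 and 2103 at 1 h, with an adjusted p of 0.056 without 4 h replicate 1. Among 20 genes of Ras and protein kinase A 7 fell (35%) and 0 rose, and TPK2 (YPL203W), a catalytic subunit of the kinase, had 366 and 605 at 4 h, against 1026 and 1141 at 1 h. Counts without 1 array lay between 1 and 3 for autophagy, 0 and 9 for the proteasome and 1 and 6 for the kinase group.

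Chaperones were mixed. Of 32 heat shock chaperone genes 4 rose (12.5%, near the 14.5% of all genes) and 3 fell (9.38%, against 12.8%). Their median log2 change was 0.06. CNS1 (YBR155W), a cochaperone of Hsp90, had an intensity of 325 and 303 at 4 h, against 117 and 125 at 1 h, and the Hsp70 gene SSA2 (YLL024C) had 3788 and 3144 at 4 h, against 1940 and 1329 at 1 h. HSP42 (YDR171W), a small heat shock protein, had 1316 and 2200 at 4 h, against 3196 and 3605 at 1 h. SSA2 and HSP42 did not pass without 1 h replicate 2 (adjusted p = 0.074 and 0.090) or 4 h replicate 1 (0.072 and 0.098). HSP104 (YLL026W), the disaggregase, had 2215 and 4051 at 4 h and 3321 and 3512 at 1 h, and its arrays of 4 h lay on both sides of those of 1 h.

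The genes that carry ethanol carbon mostly stayed where the first hour had brought them. Of 34 genes of gluconeogenesis, the glyoxylate cycle and C2 use 4 rose (11.8%, against 14.5% of all genes), 3 fell (8.82%, against 12.8%) and 27 did not pass. Their median log2 change was −0.11, with 25 changes negative and 9 positive. Relative to 0 h their median difference was 4.36 after 0.5 h and 4.43 after 1 h, then 4.17 by 4 h and 3.25 by 12 h. MLS1 (YNL117W), malate synthase, had an intensity of 9826 and 9041 at 4 h and 9375 and 7991 at 1 h. ADH2 (YMR303C), the alcohol dehydrogenase that oxidizes ethanol, had 11240 and 11182 at 4 h and 12357 and 12023 at 1 h. These are among the highest intensities of the array. Of the genes that moved, PCK1 (YKR097W), whose enzyme commits carbon to gluconeogenesis, had 10770 and 10617 at 4 h, against 5666 and 2375 at 1 h. Its log2 change was 1.54 ± 0.48 (SE, adjusted p = 0.042), and it passed only without 1 h replicate 1. MAE1 (YKL029C), the mitochondrial malic enzyme, came back from a deep fall, with 2507 and 2764 at 4 h against 761 and 636 at 1 h and 3982 and 4020 at 0 h.

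Respiration and the TCA cycle had a similar course. Of 45 genes of the respiratory chain and ATP synthase 6 rose (13.3%, near the 14.5% of all genes) and 4 fell (8.89%, against 12.8%). Their median log2 change was 0.21. The rises were CYC1, the external NADH dehydrogenase gene NDE1 (YMR145C), the cytochrome oxidase subunit gene COX5A (YNL052W) and the ATP synthase subunit genes ATP14, ATP19 and ATP20. NDE1 had an intensity of 2209 and 1885 at 4 h, against 632 and 724 at 1 h, a change of 1.59 ± 0.16 (SE, adjusted p = 0.000918). The falls were of the cytochrome oxidase subunit gene COX5B and of 3 dehydrogenases that feed the chain from lactate or glycerol phosphate. CYB2 (YML054C), the L-lactate dehydrogenase, had 381 and 685 at 4 h, against 1406 and 2661 at 1 h, DLD1 (YDL174C), the D-lactate dehydrogenase, had 1757 and 1937 at 4 h, against 3449 and 3777 at 1 h, and GUT2 (YIL155C), the glycerol 3-phosphate dehydrogenase, had 3436 and 3786 at 4 h, against 5920 and 6852 at 1 h. The lactate and pyruvate permease gene JEN1 (YKL217W) went with them, with 1701 and 1652 at 4 h against 4271 and 4117 at 1 h. JEN1 is a member of the gluconeogenesis and C2 list and was its largest fall, with a log2 change of −1.32. Without 1 h replicate 2 or 4 h replicate 1, CYB2 (adjusted p = 0.100 and 0.096) and GUT2 (0.063 and 0.064) did not pass, and CYC1 and NDE1 were the 2 rises left. Of 26 TCA cycle genes 3 rose (11.5%) and 2 fell (7.69%), both below the shares of all genes. Both subunits of the NAD-dependent isocitrate dehydrogenase were among the rises: IDH1 (YNL037C) had 3089 and 2915 at 4 h, against 1974 and 1717 at 1 h, and IDH2 (YOR136W) had 4219 and 4058 at 4 h, against 2524 and 2146 at 1 h. Their adjusted p was 0.099 and 0.127 without 1 h replicate 2 and 0.092 and 0.106 without 4 h replicate 1.

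**Figure D3:**
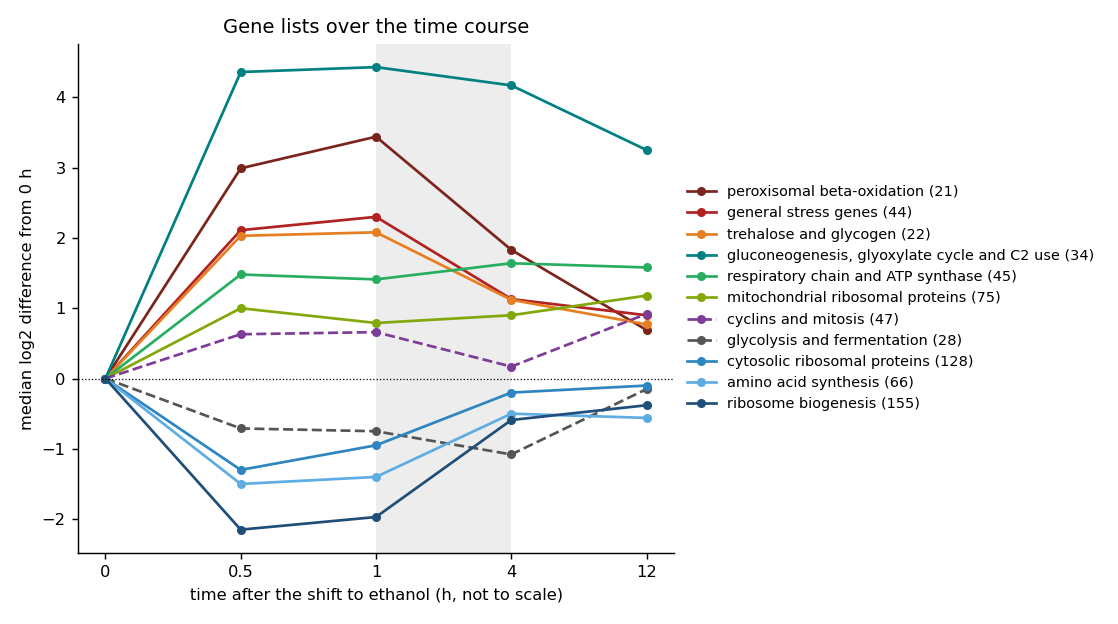
Median log2 difference from 0 h of the genes of 11 lists at each time after the shift, with the number of genes in parentheses and the step from 1 to 4 h shaded. Ribosome biogenesis stood at −0.59 at 4 h and −1.97 at 1 h, peroxisomal β-oxidation at 1.83 at 4 h and 3.44 at 1 h, and the respiratory chain at 1.64 at 4 h and 1.41 at 1 h.

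Of 28 genes of glycolysis and fermentation 5 fell (17.9%, against 12.8% of all genes) and 0 rose, with a median of −0.32. The glyceraldehyde 3-phosphate dehydrogenase gene TDH1 (YJL052W) had an intensity of 963 and 1337 at 4 h, against 2659 and 2585 at 1 h. ADH1 (YOL086C), the fermentative alcohol dehydrogenase, had 2129 and 2674 at 4 h, against 4451 and 4315 at 1 h, with an adjusted p of 0.056 without 4 h replicate 1. Neither had been called lower at 0.5 h, with 3790 and 3844 for TDH1 and 6010 and 5374 for ADH1 at 0 h, and both were higher again at 12 h, with 3377 and 3510 for TDH1 and 5797 and 6010 for ADH1. The list as a whole rose by a median of 0.80 from 4 to 12 h. Of 20 hexose transporter and sensor genes 3 fell (15%, near the 12.8% of all genes) and 0 rose, and HXT3 (YDR345C), a low-affinity transporter, had 195 and 307 at 4 h, against 399 and 399 at 1 h and 4499 and 4828 at 0 h. HXT1 (YHR094C), which the study follows through its complexes, had 90.4 and 215 at 4 h and 266 and 250 at 1 h and did not pass (adjusted p = 0.119). Of 15 genes for galactose, sucrose and maltose use 8 fell (53.3%) and 0 rose, with a median of −0.94, after a median of 1.32 above 0 h at 0.5 h. They are dim: without the dimmest 25% of genes 2 of them were called. MPH2 (YDL247W), a maltose permease whose probe set is shared with other sequences, had 36.7 and 43.4 at 4 h, against 78.7 and 102 at 1 h. With 1 array left out the counts of falls lay between 1 and 6 for glycolysis, 1 and 4 for the transporters and 3 and 5 for galactose, sucrose and maltose use, the 4 cases of the last being 4 without 1 h replicate 1, 3 without 1 h replicate 2, 5 without 4 h replicate 1 and 5 without 4 h replicate 2. HXT3 passed only without 4 h replicate 2.

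How far the step from 1 to 4 h undid the first response can be read from arrays that it does not share, those of 0 and 0.5 h. At 0.5 h, 1642 genes were higher than at 0 h (30.1%) and 1784 were lower (32.7%). Of the 1784 lower ones 705 rose between 1 and 4 h (39.5%), 30 fell (1.68%) and 1049 passed in neither direction. Of the 1642 higher ones 537 fell (32.7%), 25 rose (1.52%) and 1080 passed in neither direction. Among the 2023 genes not called at 0.5 h, 59 rose (2.92%) and 129 fell (6.38%). One fit gave both calls with a single spread for each gene, so a gene of low spread passes more readily in both steps. The shares among genes not called at 0.5 h may be lower for that reason. Seen from the other side, 89.4% of the 789 rising genes had been lower at 0.5 h, and 77.2% of the 696 falling genes had been higher. Across the 5449 genes, which are not independent and share the scaling of the arrays, the change from 0 to 0.5 h and that from 1 to 4 h correlated at r = −0.68 (Spearman's rho −0.68).

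The return was not complete, and the values that follow cover only the genes that passed in both steps and turned back. The 705 genes that were lower first and then rose stood at a median log2 difference from 0 h of −1.68 after 0.5 h, −1.56 after 1 h, −0.50 by 4 h and −0.35 by 12 h. Of these, 605 (85.8%) lay within 2‐fold of their 0 h level at 4 h, against 139 (19.7%) at 1 h. The 537 genes that were higher first and then fell stood at 1.51 after both 0.5 and 1 h, 0.56 by 4 h and 0.39 by 12 h, and 381 of them (70.9%) lay within 2‐fold of 0 h at 4 h, against 117 (21.8%) at 1 h. Genes were put in these groups by the steps that the medians show, so the medians describe them and test nothing. The 0 h cells may have been without methotrexate, since the study's text gives their pre-culture both as selective and as non-selective. This touches every value set against 0 h. If so, the cells of 1 h and 4 h also differed in their time in methotrexate. Its part in the change from 1 to 4 h cannot then be told apart from that of ethanol, and was not tested.

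**Figure D4:**
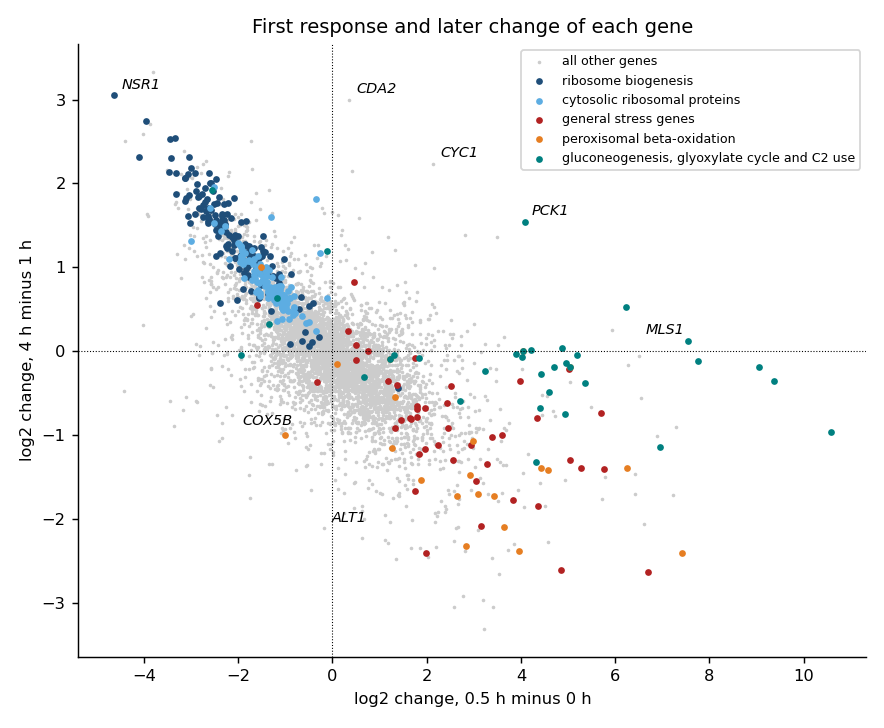
Log2 change of each gene from 0 to 0.5 h (x axis) and from 1 to 4 h (y axis), on arrays that the 2 changes do not share. Ribosome genes lie at the upper left and stress and β-oxidation genes at the lower right, along the trend of r = −0.68, and the genes of gluconeogenesis and C2 use lie far to the right with most changes near 0 on the y axis.

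The genes that ran against this pattern are few and are named here after their values were seen. Among the 25 that were higher at 0.5 h and rose again were genes of mitochondrial proteins, CYC1, NDE1, IDH1, IDH2, COX5A, ATP14, ATP19, ATP20 and MRPL44, with HAP3 (YBL021C), a subunit of the activator of respiratory genes. HAP3 had an intensity of 342 and 249 at 4 h, against 199 and 150 at 1 h, and passed only without 4 h replicate 2. Among the others were GDH3 (YAL062W), a glutamate dehydrogenase, with 3413 and 4726 at 4 h against 1755 and 1402 at 1 h, and ROX1 (YPR065W), the heme-dependent repressor of hypoxic genes, with 1913 and 1710 at 4 h against 668 and 747 at 1 h. ROX1 had an adjusted p of 0.056 without 4 h replicate 1. The median of the 25 genes was 1.95 log2 units above 0 h at 4 h and 1.03 above it at 1 h. The calls of ATP14, ATP19 and COX5A were lost with any 1 array left out, and that of ATP20 held only without 4 h replicate 2.

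The group of 30 that were lower at 0.5 h and fell again included transporters and sugar genes. ENO1 (YGR254W), an enolase, had an intensity of 934 and 1388 at 4 h, against 2085 and 1723 at 1 h and 5206 and 6173 at 0 h. DIC1 (YLR348C), the mitochondrial dicarboxylate carrier, had 298 and 374 at 4 h, against 922 and 788 at 1 h. The low-affinity iron transporter gene FET4 (YMR319C) had 39.1 and 55.1 at 4 h, against 81.3 and 75.6 at 1 h, and the zinc transporter gene ZRT2 (YLR130C) had 222 and 235 at 4 h, against 320 and 315 at 1 h. The median of the 30 relative to 0 h was −2.05 at 4 h and −1.05 at 1 h. The calls of DIC1 and ZRT2 were lost with any 1 array left out, and those of ENO1 and FET4 held only without 4 h replicate 2. YOR1 (YGR281W), a multidrug exporter that the study names, was also in this group, with 414 and 461 at 4 h against 588 and 748 at 1 h, and it passed only without 1 h replicate 1.

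Late changes without a first response were more often falls. ALT1 (YLR089C), the mitochondrial alanine transaminase gene, was slightly lower by 1 h and dropped most between 1 and 4 h. Its intensity was 3610 and 3738 at 0 h, 3238 and 3274 at 0.5 h and 2771 and 3076 at 1 h. The later arrays read 585 and 779 at 4 h and 686 and 689 at 12 h. Its log2 change from 1 to 4 h was −2.11 ± 0.17 (SE, adjusted p = 0.000415), and it passed with any 1 array left out. NRD1 (YNL251C), which ends transcription of noncoding RNAs, had 411 and 230 at 4 h, against 2042 and 1043 at 1 h. Its log2 change of −2.25 was the lowest among genes not called at 0.5 h. Among late rises, OLE1 (YGL055W), the fatty acid desaturase, had 777 and 907 at 0 h, 850 and 1083 at 0.5 h, 990 and 945 at 1 h, 2287 and 2788 at 4 h and 4730 and 4354 at 12 h. OLE1 and NRD1 also passed in each case.

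In pairs of related genes, picked after their values were seen, 1 member rose while the other did not. Of the CTP synthase genes URA7 rose, while URA8 (YJR103W) had an intensity of 767 and 1070 at 4 h, against 1583 and 1706 at 1 h. YEF3 rose, while HEF3 (YNL014W), its copy, had 1284 and 1665 at 4 h, against 2532 and 3005 at 1 h. PEX21 rose, while PEX18 (YHR160C), which shares its role, had 29.3 and 65.6 at 4 h, against 98.3 and 129 at 1 h. In all 3 pairs the gene that rose had been lower at 0.5 h than at 0 h, and the one that fell had been higher. Without 1 h replicate 2 and without 4 h replicate 1 the falls did not pass, with an adjusted p of 0.074 and 0.097 for URA8, 0.151 and 0.173 for HEF3, and 0.099 and 0.064 for PEX18, and HEF3 did not pass without 1 h replicate 1 either (0.053).

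In the other pairs the calls were less complete. CYC1 rose, while CYC7 (YEL039C), the second cytochrome c gene, had an intensity of 56.4 and 89.8 at 4 h and 116 and 205 at 1 h and did not pass (adjusted p = 0.092). COX5A had 3964 and 4073 at 4 h, against 2748 and 2540 at 1 h, and COX5B (YIL111W), the form made in low oxygen, had 221 and 351 at 4 h, against 509 and 581 at 1 h. COX5B passed only without 4 h replicate 2. For acetyl-CoA synthesis, ACS2 (YLR153C) had 3721 and 3587 at 4 h, against 1758 and 1448 at 1 h, while ACS1 (YAL054C) had 8472 and 9163 at 4 h and 11261 and 11707 at 1 h (adjusted p = 0.213) and 2917 and 4545 at 12 h. For glutamate, the NADP-dependent forms GDH1 (YOR375C) and GDH3 both rose, and GDH2 (YDL215C), the NAD-dependent form that degrades it, had 3341 and 3666 at 4 h, against 5762 and 7158 at 1 h. GDH1 had 4583 and 6093 at 4 h, against 1244 and 2155 at 1 h. GDH1 passed only without 1 h replicate 2, GDH2 did not pass without 1 h replicate 2 (adjusted p = 0.067) or 4 h replicate 1 (0.063), and GDH3 did not pass without 1 h replicate 2 (0.123) or 4 h replicate 2 (0.092). The difference of changes within a pair was not tested.

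**Figure D5:**
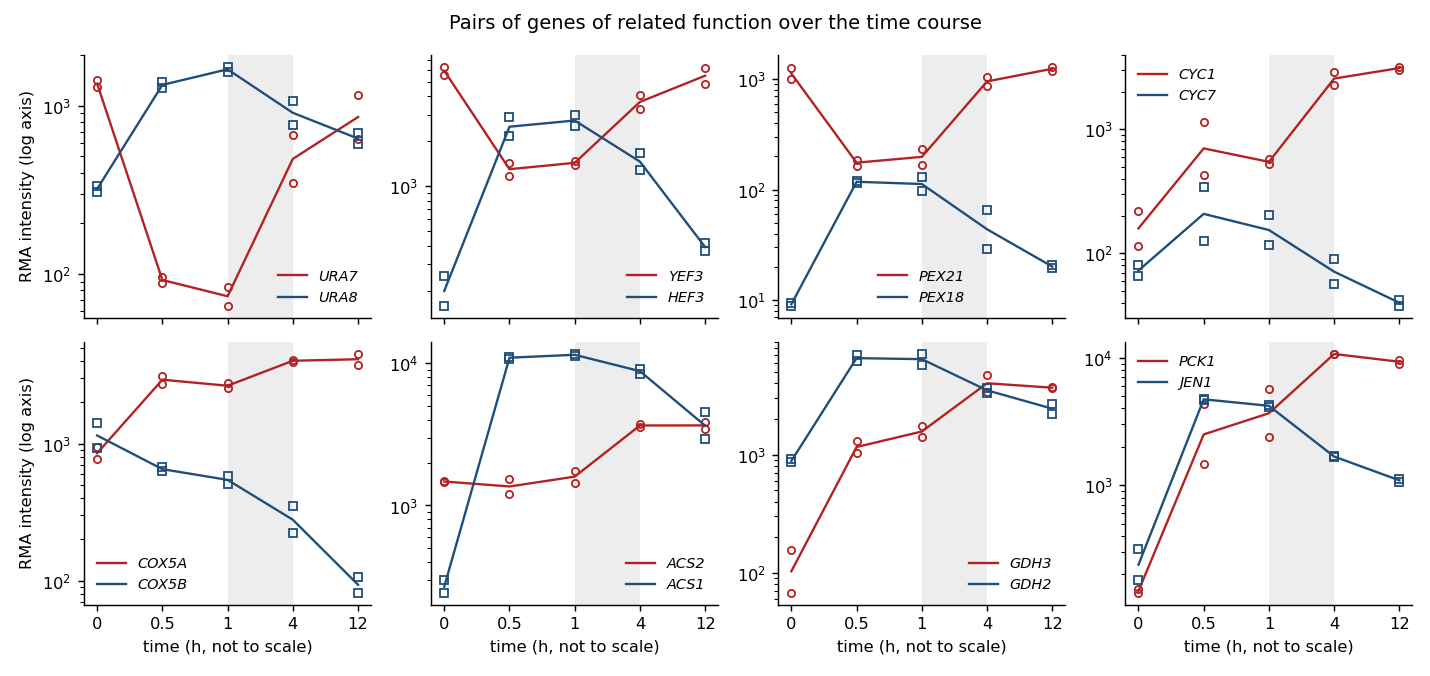
RMA intensity (log axis) at each time for 8 pairs of genes, with a point for each array and a line through the mean of the log2 values, and the step from 1 to 4 h shaded. In each panel the red gene is higher at 4 h than at 1 h on both arrays and the blue gene lower, with intensities of 668 and 348 for URA7 and 767 and 1070 for URA8 at 4 h.

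Of 47 genes of cyclins and mitosis 16 fell (34%, against 12.8% of all genes) and 1 rose between 1 and 4 h. The median was −0.50, and the same list stood 0.85 higher at 12 h than at 4 h. Its median relative to 0 h was 0.17 at 4 h and 0.66 at 1 h, so it had not gone below the starting level. CLB1 (YGR108W), a mitotic cyclin, had an intensity of 38.6 and 21.4 at 0 h, 55.7 and 73.5 at 0.5 h, 58.7 and 79.8 at 1 h, 24.0 and 27.5 at 4 h and 394 and 331 at 12 h. SWI5 (YDR146C), a transcription factor of late mitosis, had 13.3 and 16.7 at 4 h, against 41.4 and 51.8 at 1 h. CHS2 (YBR038W), the chitin synthase of the septum, had 24.4 and 31.3 at 4 h, against 63.7 and 75.2 at 1 h. At 4 h CLB1, SWI5 and CHS2 stood above 6.1%, 4.3% and 6.4% of genes, so these are dim signals, and SWI5 and CHS2 passed with any 1 array left out. CLB1 had an adjusted p of 0.067 without 1 h replicate 2 and 0.056 without 4 h replicate 1. The 1 rise was CLN3 (YAL040C), the cyclin that starts the cycle, with 107 and 101 at 4 h against 70.0 and 66.7 at 1 h, which passed only without 1 h replicate 1. The count of falls lay between 4 and 14 with 1 array left out.

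Of 62 genes of DNA replication 13 fell (21%, against 12.8% of all genes) and 2 rose, and the list's median was −0.05. POL30 (YBR088C), the sliding clamp, had an intensity of 187 and 277 at 4 h, against 571 and 632 at 1 h, and 1119 and 953 at 12 h. RNR1 (YER070W), the large subunit of ribonucleotide reductase, had 89.6 and 121 at 4 h, against 232 and 293 at 1 h, and 1724 and 1698 at 12 h. PSF2 (YJL072C), a subunit of the GINS complex, rose, with 410 and 357 at 4 h against 173 and 134 at 1 h. Of 10 histone genes 1 fell (10%, near the 12.8% of all genes). It was the linker histone gene HHO1 (YPL127C), with 365 and 584 at 4 h against 1395 and 1826 at 1 h. RNR1 had an adjusted p of 0.094 without 1 h replicate 2 and 0.097 without 4 h replicate 1, and the replication falls then numbered 4 and 2.

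Of 30 iron regulon genes 9 fell (30%, against 12.8% of all genes) and 0 rose, with a median of −0.63. The 3 largest falls were those of FIT2, TIS11 and HMX1. FIT2 is a cell wall mannoprotein that holds siderophore iron and had an intensity of 149 and 111 at 4 h, against 1267 and 804 at 1 h. HMX1, heme oxygenase, had 114 and 220 at 4 h, against 873 and 770 at 1 h. TIS11 (YLR136C), an RNA-binding protein that lowers iron-using mRNAs, had 51.5 and 50.5 at 4 h, against 418 and 355 at 1 h, and passed only without 4 h replicate 2. The uptake genes FET3 (YMR058W), with 510 and 231 at 4 h and 474 and 389 at 1 h, and FTR1 (YER145C), with 420 and 222 at 4 h and 392 and 282 at 1 h, overlapped. The count of falls was between 2 and 5 with 1 array left out. Of 23 phosphate genes 3 rose (13%) and 1 fell (4.35%), and of 43 cell wall genes 1 rose (2.33%) and 4 fell (9.3%). The 30 sterol genes had 4 rises (13.3%) and 3 falls (10%). Fatty acid and phospholipid synthesis, with 38 genes, had 4 rises (10.5%) and 6 falls (15.8%). All these shares are near or below the 14.5% and 12.8% of all genes. Without 1 h replicate 2 or 4 h replicate 1 the rises of the sterol list numbered 0 and those of the phosphate list 1.

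Among 30 multidrug and weak acid transporter genes 3 rose (10%, against 14.5% of all genes) and 3 fell (10%, against 12.8%). AQR1 (YNL065W), which exports short-chain acids and amino acids, had an intensity of 229 and 433 at 4 h, against 38.7 and 25.4 at 1 h, a log2 change of 3.33 ± 0.34 (SE, adjusted p = 0.000918). This was the largest rise of any gene, and it is not among the 10 above because AQR1 was dim, above 6.0% of genes at 1 h. The exporter genes PDR5 (YOR153W), with 178 and 194 at 4 h and 198 and 235 at 1 h, and SNQ2 (YDR011W), with 694 and 673 at 4 h and 662 and 790 at 1 h, did not pass (adjusted p = 0.592 and 0.767). MUP1 (YGR055W), the methionine permease, had 2050 and 1142 at 4 h, against 902 and 660 at 1 h, with an adjusted p of 0.053. FMP45 (YDL222C), a Sur7-family protein, had 366 and 842 at 4 h, against 1053 and 2022 at 1 h, and did not pass without 1 h replicate 2 or 4 h replicate 1 (adjusted p = 0.273 and 0.300). RBD2 (YPL246C), a rhomboid protease, had 495 and 372 at 4 h and 362 and 373 at 1 h, and did not pass (adjusted p = 0.538).

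Of 30 early meiosis genes 5 fell (16.7%, near the 12.8% of all genes) and 2 rose. DMC1 (YER179W), the meiotic recombinase, had an intensity of 20.6 and 26.0 at 4 h, against 186 and 283 at 1 h. Its log2 change of −3.31 was the largest fall of any gene, and it is not among the 10 above because the gene was dim. The gene REC102 (YLR329W), needed for meiotic breaks, had 21.3 and 19.6 at 4 h, against 87.8 and 77.4 at 1 h. RIM4 (YHL024W), a regulator of meiotic translation, had 211 and 434 at 4 h, against 831 and 1449 at 1 h. SSP1 (YHR184W), which shapes the spore membrane, rose, with 44.2 and 63.2 at 4 h against 11.4 and 12.4 at 1 h, as did CDA2, while its neighbour in function CDA1 (YLR307W) had 56.5 and 80.7 at 4 h and 56.4 and 60.8 at 1 h. DMC1, REC102, RIM4 and SSP1 passed with any 1 array left out. SSP1 read as low at 1 h as BAR1, a gene that diploid cells keep off, with 10.4 and 13.0. It is thus a dim signal there, as is REC102 at 4 h.

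The steps before and after differ from this one in size. From 0.5 to 1 h limma called 0 genes (0%), with 90 at an unadjusted p under 0.05, and 5% of genes lay below −0.28 and 5% above 0.31 on the log2 scale. From 4 to 12 h it called 617 genes (11.3%), 372 higher and 245 lower at 12 h. These counts share the arrays of 1 h or 4 h with the step from 1 to 4 h, and the time between harvests differs. After 4 h the median of the ribosome biogenesis list moved by 0.19, that of the stress list by −0.60, that of β-oxidation by −0.95 and that of the cell wall list by 1.09.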

How the data were processed

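mRNA levels were measured on 10 Affymetrix arrays, 2 at each of 5 times. The authors read the arrays with MAS 5.0 and then ran RMA in BioConductor, which corrects background, normalizes and summarizes each probe set. The RMA version is not given in the sources used. The deposited values are RMA intensities on a linear scale for 5716 probe sets, and their log2 was used without further scaling. Depth has no meaning here, and the number of arrays limits the precision. A total of 5498 probe sets carry 1 gene symbol, 0 several and 218 none; 12 symbols were updated and all 5498 matched through RefSeq's R64 gene table. Where a gene had several probe sets the brightest was kept (5449 genes, 49 probe sets set aside, 115 genes with a shared probe set).

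One limma 3.58.1 fit (R 4.3.3) with a mean for each time gave all contrasts, with 5 residual and 4.33 prior degrees of freedom, a two-sided test and Benjamini-Hochberg adjustment over all genes. No filter, fold minimum or block was used. It was tested on simulated data with 200 changed genes. Samples were grouped by the labels.

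The members and the 45 gene lists (1635 measured members, 1605 different genes) were chosen with earlier results of these data known, and lists are described by counts and medians without a set test. Genes were named by a rule. It took the 10 largest rises and falls past the threshold with no overlap of arrays and a mean above the 25th percentile. It also took up to 4 members per list and 10 genes of the study. Others were picked after their values were seen. These include the copies and pair partners, the genes set beside a list without passing, and those of the late and against-pattern groups. POX1, FOX2, PIP2, TPS1, MEP1, ANT1 and CLN3 were also picked in this way. Alternatives changed the arrays fitted, a replicate block, quantile or median scaling, a filter on dim genes, an added 32 on the intensity, the probe set rule, the prior variance, a 2‐fold minimum and each array. Promoter motifs are not analysed here. Python 3.11.15 and matplotlib 3.10.9 drew the figures.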

Additional observations from a re-analysis of the deposited data

Results flagged for a closer look

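Of the 218 probe sets without a gene symbol in the tables used here, which enter no comparison above, 66 (30.3%) changed between 1 and 4 h in a limma fit over all 5716 probe sets at an adjusted p under 0.05. Of these 20 were higher and 46 were lower at 4 h. They were set apart because they lie outside the named genes, and what they measure was not analysed here. Each time has 2 arrays, too few to look for a single outlying array by its gap.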

How the results depend on the processing

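No called gene changed its direction under any of the 13 other fits. For most of them this was fixed in advance. The arrays of the called genes do not overlap, so leaving out 1 cannot turn a direction. Fits that alter only the block, the prior variance or the other times keep the same log2 change. The count of 1485 lay between 1273 and 1995 under the fits that kept all 4 arrays. It was 650 at a 2‐fold minimum (380 higher, 270 lower), which also gave 2076 for 0.5 h against 0 h and 353 for 12 h against 4 h. With 1 array left out it lay between 479 and 1079 (310 to 630 higher, 169 to 491 lower), and that for 12 h against 4 h between 258 and 668. Counts of list members with 1 array left out lay between 44 and 96 for ribosomal proteins, 92 and 135 for ribosome biogenesis, 4 and 14 for tRNA synthetases, 6 and 24 for stress genes, 4 and 15 for trehalose and glycogen, 6 and 12 for β-oxidation, 3 and 5 for galactose, sucrose and maltose use, 22 and 47 for amino acids, 8 and 13 for purines and 2 and 8 for eisosomes. With only the arrays of the 2 times, 9 trehalose and glycogen genes passed, and 353 genes for 12 h against 4 h. Without the dimmest 25% of genes, 2 genes of galactose, sucrose and maltose use passed. The causes were not tested, except that these fits hold fewer arrays or genes.

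With the replicate number as a block, 1995 genes passed for 4 h against 1 h and 1066 for 12 h against 4 h. Deviations of same-numbered arrays correlated at 0.565 between 1 and 4 h and at 0.027 to 0.445 between other times. No label ties a number to a culture and 2 of the 10 pairs of times correlated below 0.1, so the numbers were not taken as pairs. The block raised the falls to 27 for the proteasome, 15 for the iron regulon, 10 for autophagy and 9 for early meiosis, and the rises to 17 for methionine and sulfate, 18 for translation factors, 10 for the respiratory chain and 7 for sterol synthesis. Of 215 called genes considered for naming, 93 passed with each of the 4 arrays left out and 26 with none. A change in total mRNA, dim genes near background and saturation at the highest intensities limit these values. The planned promoter motif counts were not run, since no promoter sequences were used here.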
